A study of Mus musculus with 11 samples.

Results

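The miR-34 and miR-449 family comprises short regulatory RNAs processed from 6 mouse hairpins, Mir34a, Mir34b, Mir34c, Mir449a, Mir449b and Mir449c. Its members were taken by name from a liver miRNA count table, whatever the arm: 11 of the 1281 mature miRNA names, of which 7 had a read in any library, against 811 names over the whole table. Small RNA was sequenced from liver of untreated mice on a C57/B6 background that lacked telomerase and had short telomeres (G4). Libraries 6, 7, 8, 10, 11 and 12 came from G4 mice that also lacked p53 (p53-/-, n = 6), and libraries 1 to 5 from G4 mice with intact p53 (p53+/+, n = 5). The telomerase knockout was therefore common to both genotypes, and the comparison asked which miRNAs depend on p53 in that setting; mice with telomerase were not analysed here. Neither the age of the mice nor the number of mice behind a library is stated in the labels used here, and the spread that p-values measure here may be technical.

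A hairpin precursor can give a miRNA from its 5′ side (5p arm) and another from its 3′ side (3p arm), and each represses messenger RNAs that pair with its seed, bases 2 to 8. The Mir34a gene is a direct transcriptional target of p53 in mouse and human cells, and miR-34 represses messenger RNAs of cell cycle regulators and of the deacetylase Sirt1. The Mir34b and Mir34c hairpins are made from a shared primary transcript that p53 is also known to activate, and they are best known from testis, brain and ciliated epithelia. The Mir449 hairpins are co-transcribed with Cdc20b and are characteristic of multiciliated cells.

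The mature sequences are shown because the shared seed decides which members were summed. RefSeq (GRCm38.p6) gave a mature sequence for 9 of the 11 names; miR-34c-5p and miR-449b had none. Capitals mark bases 2 to 8, and the prefix for mouse, mmu-, is left out after this paragraph.
mmu-miR-34a-5p: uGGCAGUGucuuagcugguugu
mmu-miR-34b-5p: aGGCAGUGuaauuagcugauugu
mmu-miR-449a-5p: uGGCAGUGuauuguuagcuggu
mmu-miR-449c-5p: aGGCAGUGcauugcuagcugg
mmu-miR-34a-3p: aAUCAGCAaguauacugcccu
mmu-miR-34b-3p: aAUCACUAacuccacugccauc
mmu-miR-34c-3p: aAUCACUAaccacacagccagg
All 4 of the 5p arms shown carry GGCAGUG at bases 2 to 8, and these were the only 4 of 1679 mouse mature sequences in the RefSeq table to do so. miR-34a-5p and miR-449a-5p are identical through base 9, and miR-34b-5p is identical to miR-34a-5p from base 2 to base 9. The 3p arms have other seeds, and miR-34b-3p and miR-34c-3p share theirs, with 17 of 22 positions identical.

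The Mir34a, Mir34c and Mir34b hairpins are shown with the same 7 bases in capitals, to place the seed of miR-34c-5p.
Mir34a hairpin: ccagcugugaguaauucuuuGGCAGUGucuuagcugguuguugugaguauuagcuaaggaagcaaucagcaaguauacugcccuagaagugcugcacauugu
Mir34c hairpin: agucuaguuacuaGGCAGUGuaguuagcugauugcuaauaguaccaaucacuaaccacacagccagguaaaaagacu
Mir34b hairpin: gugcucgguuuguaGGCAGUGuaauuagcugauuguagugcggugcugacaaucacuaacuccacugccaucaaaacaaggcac
The bases GGCAGUG occur once in each hairpin, on its 5′ side, starting at position 14 of the Mir34c hairpin. miR-34c-5p was therefore counted among the arms with the shared seed. On GRCm38, Mir34a (ENSMUSG00000065493.1) lies at chr4:150068454-150068555 on the plus strand, where its 3′ end overlaps an exon of Gm37795, a gene model that GENCODE M21 lists as still to be experimentally checked. Mir34c (chr9:51103034-51103110) and Mir34b (chr9:51103562-51103645) lie close together on the minus strand, within an intron of Btg4, which is on the opposite strand. Mir449c, Mir449b and Mir449a span 1642 bases from 113035983 to 113037624 on the plus strand of chromosome 13, inside introns of Cdc20b on the same strand.

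Total counts ran from 1905609 to 6682492 per library, and a count of 0 in a library allows up to 3 counts, or 0.449 to 1.57 CPM (counts scaled to 1000000 per library). Without molecular identifiers, such limits and the Wilson intervals given for shares of counts cover the error of counting alone. The intervals of the edgeR fold changes also take in the spread between libraries. miR-122-5p, the defining miRNA of hepatocytes, was the most abundant miRNA in all 11 libraries. The table holds no messenger RNA, so the p53 labels were not checked on Trp53. In a principal component analysis of all tested miRNAs, p53-/- library 6 lay at 14.4 on the second component, where the other libraries lay between -4.34 and 0.65. p53+/+ libraries 1 and 2 were at 10.5 and 13.0 on the first component, which held the rest between -5.97 and 0.77. Libraries 1 and 2 also had the lowest total counts of all, 1965468 and 1905609. Values without library 6, or without libraries 1 and 2, are given for miR-34a-5p, miR-34c-5p, their ratio, miR-34b-3p and the summed seed level. The grouping by seed and the comparison of profiles were run on all libraries alone.

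miR-34a-5p fell in livers without p53, and miR-34c-5p, which carries the same seed but comes from another locus, did not pass the test. miR-34a-5p had 17, 42, 44, 66, 19 and 37 counts in p53-/- libraries 6, 7, 8, 10, 11 and 12, against 129, 104, 253, 713 and 373 counts in p53+/+ libraries 1 to 5. After scaling by TMM, a factor per library that evens out differences in composition, its level in the p53-/- libraries was 3.90, 6.28, 8.13, 12.4, 6.94 and 5.16 CPM in the same order, and in the p53+/+ libraries 61.5, 46.9, 42.4, 120.0 and 88.7 CPM. The highest p53-/- library, library 10, was thus below the lowest p53+/+ library, library 3. The genotypes did not overlap; of the 388 miRNAs tested, 1.03% had ranges lying apart with p53-/- lower. miR-34a-5p ranked between 224 and 312 by count among the miRNAs of each p53-/- library, and between 117 and 160 in the p53+/+ libraries.

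The fitted fold change of miR-34a-5p corresponded to a 10.1-fold lower level in p53-/- livers (95% interval 6.04 to 16.8), a log2 fold change of -3.33 (SE 0.34) and edgeR's quasi-likelihood test gave an adjusted p of 7.07e-05. It was the only call at an adjusted p of 0.05, that is 0.258% of the 388 miRNAs tested, and 0 were called higher. Before adjustment, 35 miRNAs (9.02%) had a p under 0.05 in edgeR and were lower and 32 (8.25%) were higher. DESeq2 called 9 lower (2.32%) and 8 higher (2.06%) of the 388. A miRNA without an adjusted p in DESeq2 was counted as not called. miR-34a-5p had the smallest p of all and the second largest change in size, after miR-217-5p, a pancreas marker. Without p53+/+ libraries 1 and 2 its log2 fold change was -3.50, and without p53-/- library 6 it was -3.21, at an adjusted p of 0.000515 and 0.000192 in edgeR. In bulk liver RNA, fewer cells of a type and less RNA per cell cannot be told apart.

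miR-34c-5p had 24, 55, 44, 23, 31 and 76 counts in p53-/- libraries 6, 7, 8, 10, 11 and 12, against 14, 15, 61, 78 and 38 counts in p53+/+ libraries 1 to 5. These counts gave 5.50, 8.22, 8.13, 4.31, 11.3 and 10.6 CPM in the p53-/- libraries, and 6.68, 6.77, 10.2, 13.1 and 9.04 CPM in the p53+/+ libraries. The genotypes overlapped through most of their range: the p53-/- library was the lower one in 18 of the 30 pairs of 1 library from each genotype, against 30 of 30 for miR-34a-5p. The log2 fold change was -0.22 (SE 0.29, adjusted p = 0.719 in edgeR), with a 95% interval of -0.84 to 0.40. It was -0.40 without p53+/+ libraries 1 and 2 and -0.14 without p53-/- library 6, at an adjusted p of 0.617 and 0.822 in edgeR.

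**Figure D1:**
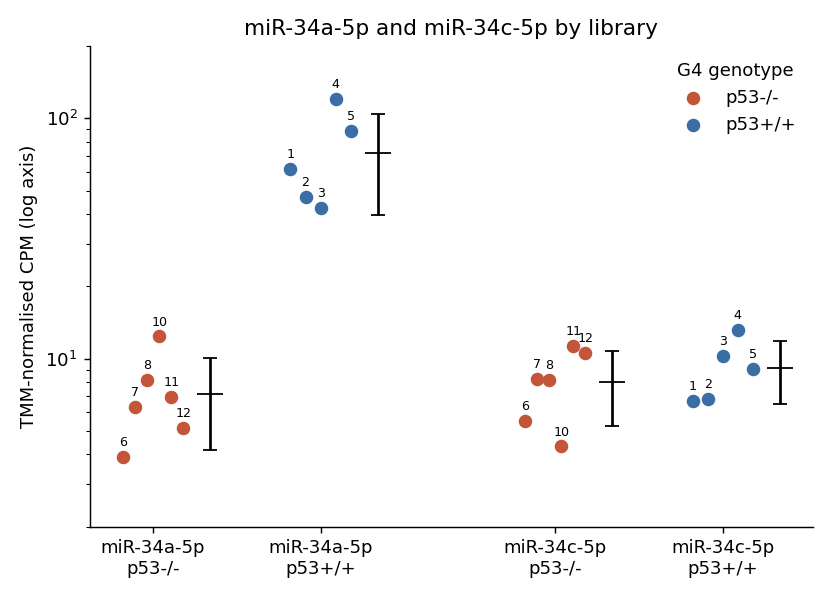
TMM-normalised CPM on a log axis of miR-34a-5p (left pair) and miR-34c-5p (right pair) in p53-/- and p53+/+ livers; each point is 1 library, labelled with its number, and bars are the mean ± SD. The miR-34a-5p points lie between 3.90 and 12.4 CPM in p53-/- livers, all below the p53+/+ points at 42.4 to 120.0 CPM, while the miR-34c-5p points of the genotypes overlap.

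The effects on the 2 loci differed. The ratio of miR-34a-5p to miR-34c-5p counts within a library, in which depth and scaling cancel, was 0.708, 0.764, 1.00, 2.87, 0.613 and 0.487 in p53-/- libraries 6, 7, 8, 10, 11 and 12. In p53+/+ libraries 1 to 5 it was 9.21, 6.93, 4.15, 9.14 and 9.82. miR-34a-5p exceeded miR-34c-5p in 5 of 5 p53+/+ libraries but in 1 of 6 p53-/- libraries, with equal counts in library 8. With 0.5 added to each count, the log2 ratio averaged -0.18 ± 0.89 (SD, n = 6) without p53 and 2.88 ± 0.51 (SD, n = 5) in p53+/+ livers. These means differed by -3.07, with p = 0.00433 in a two-sided exact permutation test over the libraries. The 2 arms and the test were chosen with earlier results of these data known, which this p does not allow for. The difference was -3.02 without p53+/+ libraries 1 and 2 (exact p = 0.0119) and -3.004 without p53-/- library 6 (exact p = 0.00794). Both were the smallest p that the test could give with the libraries left.

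**Figure D2:**
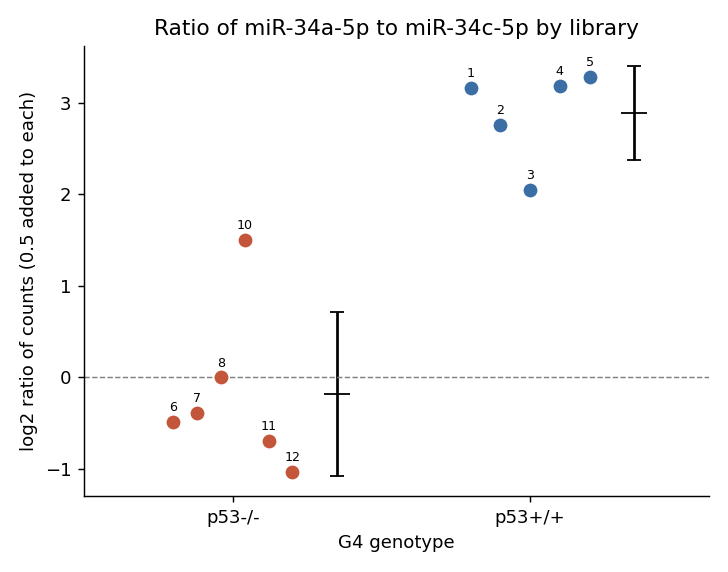
Log2 ratio of miR-34a-5p to miR-34c-5p counts in each library, p53-/- left and p53+/+ right; points are labelled with library numbers, bars are the mean ± SD, and the dashed line marks equal counts. p53+/+ libraries lie between 2.04 and 3.28, and p53-/- libraries between -1.03 and 1.50, where library 10 is the highest.

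Libraries of a genotype differed from each other in both arms. Relative to its level, miR-34a-5p had a coefficient of variation of 41.4% in p53-/- livers and 45.03% in p53+/+ livers. For miR-34c-5p this was 34.3% in p53-/- livers and 29.2% in p53+/+ livers. p53+/+ library 4 had the highest level of both arms. p53-/- library 10 had the highest miR-34a-5p level of its genotype and the lowest miR-34c-5p level.

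The remaining members were near or below the detection limit. miR-34b-3p, the more abundant arm of Mir34b, had 2, 8, 1, 0, 1 and 1 counts in p53-/- libraries 6, 7, 8, 10, 11 and 12, and 0, 1, 9, 3 and 8 counts in p53+/+ libraries 1 to 5. Pooled over libraries this was 0.397 CPM from 13 counts in p53-/- livers and 1.02 CPM from 21 counts in p53+/+ livers. It did not pass the filter on low counts. With no filter, over 811 miRNAs, its log2 fold change was -1.22 (adjusted p = 0.554 in edgeR), and the two-sided exact permutation p on the CPM was 0.225. The estimate rested on single libraries: it was -2.11 without p53-/- library 7, but -0.79 without p53+/+ library 5 (adjusted p = 0.428 and 0.705 in edgeR). It was -1.65 without p53+/+ libraries 1 and 2 and -1.27 without p53-/- library 6.

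miR-34b-5p, miR-449a-3p, miR-449b and miR-449c-3p had 0 counts in every library, which allows up to 1.57 CPM in the shallowest. miR-449a-5p had 2 counts in p53-/- library 12 and 1 count in each of p53+/+ libraries 1 and 2. miR-449c-5p had 1 count, in p53-/- library 6. miR-34c-3p had 1 count in p53-/- library 6, and 2 and 1 counts in p53+/+ libraries 3 and 5. None of these members passed the filter. With no filter, edgeR called none of those with reads (adjusted p = 0.841 for miR-449a-5p, 0.627 for miR-449c-5p and 0.555 for miR-34c-3p). miR-34a-3p did not pass the filter either, and all its 5 counts came from p53+/+ library 5. With no filter its log2 fold change was -3.42 (adjusted p = 0.352 in edgeR).

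The arms were used very unequally, and not on the same side in each hairpin. Of the Mir34a counts, 225 were from the 5p arm and 0 from the 3p arm in p53-/- livers, against 1572 and 5 in p53+/+ livers. All 5 miR-34a-3p counts came from p53+/+ library 5. The 5p arm thus made up 99.7% of Mir34a counts over all libraries (95% Wilson interval 99.4 to 99.9%). Mir34c gave 1 count of the 3p arm in p53-/- livers and 3 in p53+/+ livers, so its 5p arm made up 99.6% of its counts in p53-/- livers and 98.6% in p53+/+ livers (Wilson intervals 97.8 to 99.9% and 95.9 to 99.5%). Mir34b was the reverse: all 34 counts were from the 3p arm, so the 5p share was at most 10.2% (Wilson). This left miR-34b with no detected copy of the shared seed.

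The summed level of the 5 arms counted as carrying the seed GGCAGUG was lower in livers without p53. It was 9.63, 14.5, 16.3, 16.7, 18.3 and 16.04 CPM in p53-/- libraries 6, 7, 8, 10, 11 and 12, and 68.7, 54.2, 52.6, 133.1 and 97.7 CPM in p53+/+ libraries 1 to 5. The genotypes did not overlap. Of the 388 miRNAs tested singly, 1.03% lay apart with p53-/- lower. Among the 162 sums by seed ranked below, the only other one lying apart with p53-/- lower was that of miR-374b-5p. The sum averaged 15.2 ± 3.00 CPM (SD, n = 6) without p53 and 81.3 ± 34.2 CPM (SD, n = 5) in p53+/+ livers, a 5.34-fold higher mean in p53+/+ livers. The corresponding ratio of means for miR-34a-5p alone was 10.1-fold. The mean in p53-/- livers was 0.187 of that in p53+/+ livers, or 0.161 without p53+/+ libraries 1 and 2 and 0.201 without p53-/- library 6. No p is given for the sum, since the members were chosen with results known.

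The makeup of this seed dose differed as well. miR-34a-5p provided 40.5, 43.3, 50.0, 74.2, 38.0 and 32.2% of the summed counts in p53-/- libraries 6, 7, 8, 10, 11 and 12. In p53+/+ libraries 1 to 5 it provided 89.6, 86.7, 80.6, 90.1 and 90.8%. The share averaged 46.4 ± 14.8% (SD, n = 6) without p53 and 87.5 ± 4.20% (SD, n = 5) in p53+/+ livers, with miR-34c-5p supplying nearly all of the rest. The highest p53-/- share, in library 10, had a Wilson interval of 64.2 to 82.1%, which overlapped that of the lowest p53+/+ share, in library 3 (75.8 to 84.6%). Of the difference of -66.0 CPM between the mean doses, miR-34a-5p made up 98.1% and miR-34c-5p -1.15 CPM. The miR-449 arms added at most 2 counts to the sum in any library.

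**Figure D3:**
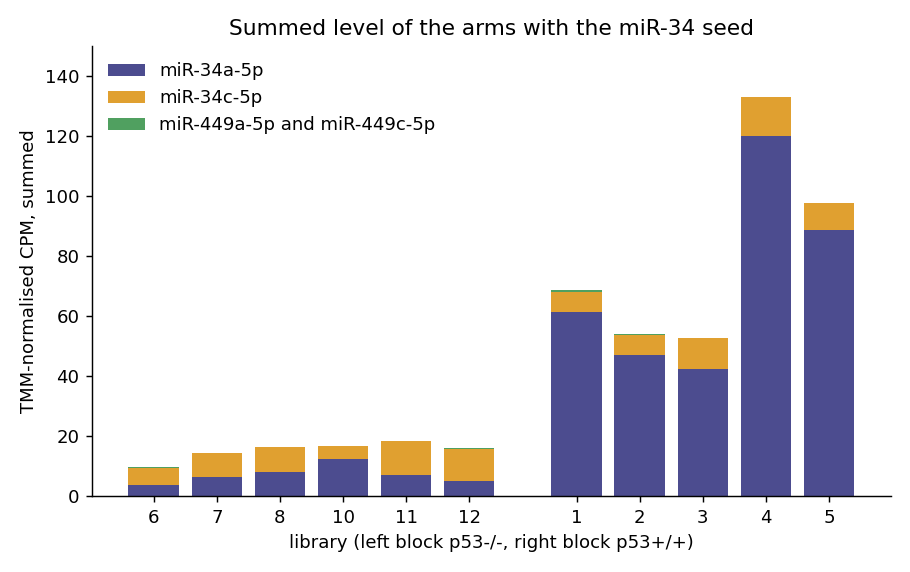
Summed TMM-normalised CPM of the arms with the miR-34 seed in each library, p53-/- libraries left and p53+/+ libraries right, with bar segments for miR-34a-5p, miR-34c-5p and the miR-449 arms. The p53-/- bars stand between 9.63 and 18.3 CPM and the p53+/+ bars between 52.6 and 133.1 CPM; the miR-34c-5p segments stand between 4.31 and 11.3 CPM in p53-/- livers and between 6.68 and 13.1 CPM in p53+/+ livers.

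Across the table, miRNAs were also grouped by seed, with 647 of the 811 detected names matched to a RefSeq sequence and miR-34c-5p added by its hairpin. Other names without a sequence, the abundant miR-122-5p among them, were left out of the grouping. Of 162 seed groups with a mean of at least 10 CPM, the miR-34 and miR-449 group had the second lowest fold of mean summed levels, a log2 value of -2.42, where the median group was at 0.04. The lowest was miR-217-5p at -4.51 and the third was miR-677-5p at -1.67. Unlike the miR-34 and miR-449 group, these neighbours overlapped between genotypes. miR-217-5p reached 2.69 CPM in a p53-/- library and was at 0 in a p53+/+ library, and miR-677-5p reached 26.3 CPM in a p53-/- library against a lowest p53+/+ value of 6.70 CPM. Lying apart was not particular to the miR-34 and miR-449 group. The only other of the 162 groups to lie apart with p53-/- lower was miR-374b-5p, at -0.62. It was at most 87.0 CPM in p53-/- livers and at least 101.3 CPM in p53+/+ livers.

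**Figure D4:**
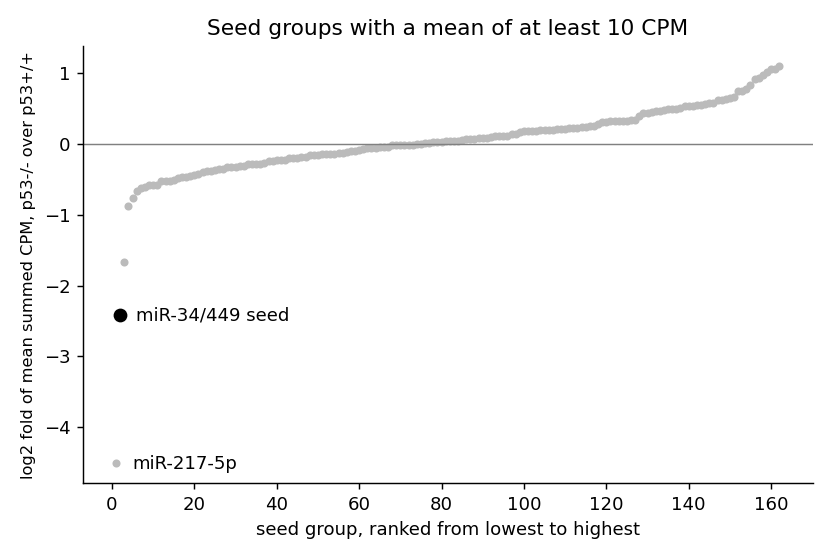
Log2 fold of the mean summed CPM, p53-/- over p53+/+, of 162 seed groups in order of their value; each point is 1 group and the black point is the miR-34 and miR-449 seed. It lies at -2.42, above miR-217-5p at -4.51 and below the other groups.

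Profiles over the libraries were also compared. By the root mean square difference of log2 levels over the 11 libraries, each miRNA centred on its own mean, the nearest to miR-34a-5p of the tested miRNAs were miR-1948-5p (1.34), miR-99a-3p (1.39) and miR-1982.1-3p (1.39). The median difference to all others was 1.75, and a flat profile would differ by 1.69. The log2 fold changes of these miRNAs, -0.67, -0.77 and -0.71, did not pass the test (adjusted p = 0.393, 0.174 and 0.595 in edgeR). miR-99a-3p still had ranges lying apart, at most 4.75 CPM in p53-/- livers and at least 5.03 CPM in p53+/+ livers. This held for 1.03% of the 388 miRNAs tested. miR-1948-5p and miR-1982.1-3p overlapped between genotypes. The profiles nearest to miR-34c-5p were those of miR-3102-3p (0.32), miR-21a-3p (0.34) and miR-1968-5p (0.35), where a flat profile would differ by 0.43 and the median was 0.60.

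The tested arms of other miRNAs reported to be induced or matured through p53 had smaller changes than miR-34a-5p. Of 42 arms listed, 31 were tested and 0 were called in either direction by edgeR. Before adjustment, 10 of the 31 had a p under 0.05 in edgeR, all of them lower except miR-194-2-3p. Over all tested miRNAs, 9.02% were lower and 8.25% higher at that p. DESeq2 called 2 of the 31, where it called 4.38% of all tested miRNAs. Several of the 31, miR-141-3p among them, had no adjusted p in DESeq2 and were counted as not called. Values were below 0 for 25 of the 31, with a median log2 fold change of -0.24 and a range of -1.83 to 0.49; over all tested miRNAs 198 of 388 were below 0, with a median of -0.01. Smallest in p were 4 arms, miR-194-2-3p, of a hepatocyte cluster, at 0.49, miR-429-3p and miR-141-3p, of the epithelial miR-200 family, at -1.20 and -1.83, and miR-29a-3p, which represses collagens, at -0.58, all with an adjusted p of 0.174 in edgeR. The DESeq2 calls were miR-194-2-3p and miR-429-3p. Only miR-194-2-3p had genotypes that did not overlap, at 399.9 to 476.6 CPM in p53-/- livers and 277.1 to 329.6 CPM in p53+/+ livers. Of all tested miRNAs, 1.29% lay apart with p53-/- higher. The more abundant miR-194-5p, also on the list, went the other way at -0.52 (adjusted p = 0.190 in edgeR). Its mean was 4243 CPM in p53-/- livers and 6088 CPM in p53+/+ livers.

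**Figure D5:**
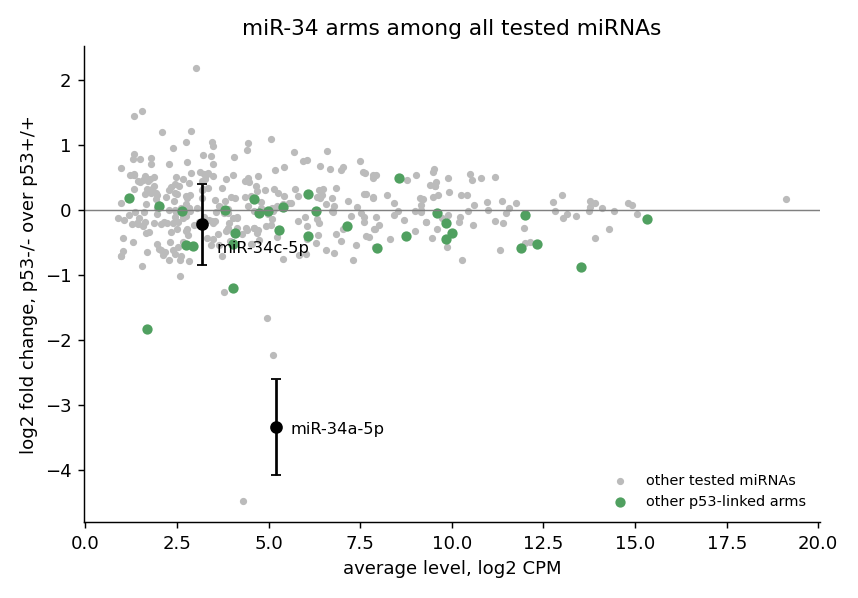
Log2 fold change, p53-/- over p53+/+, against average level in log2 CPM for the 388 tested miRNAs, with miR-34a-5p and miR-34c-5p in black with 95% intervals and the other p53-linked arms in green. miR-34a-5p at -3.33 lies apart from the p53-linked arms, which run from -1.83 to 0.49.

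Markers of other cell types that a liver sample could hold, or that are known for miR-34, were summed per library. The 7 testis germ cell markers all had reads, with a summed level of 3.63 to 24.8 CPM in p53-/- livers and 5.20 to 11.0 CPM in p53+/+ livers. Of the 3 neuronal markers 2 had reads and miR-124-3p had 0 counts in all libraries, with sums of 3.49 to 6.19 CPM in p53-/- livers and 6.06 to 7.67 CPM in p53+/+ livers. The 6 biliary and other epithelial markers summed to 828.8 to 2454 CPM in p53-/- livers and 1096 to 2995 CPM in p53+/+ livers. The 4 pancreas markers, miR-217-5p among them, summed to 6.75 to 27.5 CPM in p53-/- livers and 2.86 to 410.2 CPM in p53+/+ livers. The sums of the red cell, leukocyte, endothelial, stellate and striated muscle markers overlapped between the genotypes. The part of these cells in the miR-34 levels was not tested.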

How the data were processed

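Small RNA libraries were made from total RNA of 50 mg of liver, extracted with Trizol, per the labels' protocols. The table the authors deposited lists raw read counts for each mature miRNA of each hairpin. The submitters' processing notes name the genome build GRCm38 and limma; aligner, counter and adapter trimming: not given in the sources used here. A second table that the authors deposited holds CPM, in which every library's counts sum to 1000000. The files of single libraries held the same counts as the table of the series (0 differing values).

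Each mature name was counted once, with its highest entry over hairpins; 76 names were listed more than once, none of them a member. The count test was the quasi-likelihood test of edgeR 4.0.16 (R 4.3.3) with TMM scaling, filterByExpr by genotype and no covariate. Its p-values were adjusted by Benjamini-Hochberg over all 388 miRNAs left by the filter, at a threshold of 0.05. Of the members 2 passed it, miR-34a-5p and miR-34c-5p. Normalised CPM are CPM after TMM scaling, and the log2 profiles used a prior count of 2. DESeq2 1.42.0, limma-voom (limma 3.58.1), other scalings, no filter, and left-out libraries were the alternatives.

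The members, the lists and the tests were chosen with earlier results of these data known. The miRNAs named were every family arm in the table, the 3 nearest profiles to each tested member, and the 4 p53-linked arms with the smallest p. miR-122-5p and miR-124-3p were named as markers. miR-217-5p, miR-677-5p, miR-374b-5p and miR-194-5p were named after their values were seen.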

Additional observations from a re-analysis of the deposited data

Results flagged for a closer look

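Among 18 sets of values with any spread, each 1 measure in 1 genotype, 4 had a library lying far from the others by Dixon's criterion. The criterion flags about 5% of sets of normally spread values by chance, but that rate does not apply here: in each of the 4 all other libraries of the genotype were at 0, and a set with reads in 1 library alone always meets the criterion. At most 5 counts made the gap. miR-449a-5p stood at 0.279 CPM in p53-/- library 12, and miR-34c-3p and miR-449c-5p each stood at 0.229 CPM in p53-/- library 6. miR-34a-3p stood at 1.19 CPM, from 5 counts, in p53+/+ library 5. No set of miR-34a-5p, miR-34c-5p or summed seed values was among them.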

How the results depend on the processing

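No paired analysis was possible because the libraries of the 2 genotypes share no replicate number. The direction of the miR-34a-5p and miR-34c-5p values, and their side of the threshold, held in all 20 alternatives tried for each, except that DESeq2 gave miR-34c-5p no adjusted p. With each library left out in turn, the log2 fold change of miR-34a-5p ran from -3.58 to -3.12 and that of miR-34c-5p from -0.38 to -0.11. Over all alternatives the adjusted p of miR-34a-5p was at most 0.0155, when p53-/- libraries were limited to those with HA numbers over 500 (a number in the descriptions whose meaning is not stated). The 34a-to-34c difference in log2 ratio ran from -3.40 to -2.90 with a library left out (exact permutation p from 0.00476 to 0.00794). Each such p was the smallest that the test could give with the libraries left. The summed seed level in p53-/- livers was 0.172 to 0.223 of that in p53+/+ livers with a library left out. The mean miR-34a-5p share then ran from 40.8 to 49.2% in p53-/- livers and from 86.7 to 89.3% in p53+/+ livers. The 5p share of Mir34a ran from 99.5 to 100%, the last without p53+/+ library 5. edgeR and limma-voom called 1 miRNA lower and 0 higher in every alternative run, with 0 p53-linked arms, whereas DESeq2 called 9 lower and 8 higher, with 2 p53-linked arms; the cause was not tested. The alternatives for miR-34b-3p and for the arm shares were chosen after seeing the data; they gave miR-34b-3p log2 fold changes from -2.66 to -0.79, none of them called. miR-34b and the miR-449 arms reached 9 counts at most in a library, and the limit that depth sets on them was not separated from the spread between libraries.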
